A study of Rattus norvegicus with 17 samples.

Results

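The rat genes of antigen presentation by major histocompatibility complex (MHC) class I were compared in colon mucosa between rats on high and on low calcium diets. The set held 10 genes, namely the class I heavy chains RT1-A1, RT1-A2, RT1-A3, RT1-CE5, RT1-CE16, RT1-N3 and RT1-S3, the shared light chain B2m, and the peptide transporter subunits Tap1 and Tap2. A probe was taken when the gene name printed in the array's design was one of these, whatever its values. Probes were found for 9 of the 10 genes, 15 in all, among 41012 probes of the array. No probe carried the name RT1-A1. Its transcript was listed among the accessions of 1 probe named RT1-Cl, which differed by 0.09 ± 0.06 (log2, high minus low calcium, SE).

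Both groups were females transgenic for human HLA-B27 and human β2-microglobulin, bred on the inbred Fisher 344 strain, and 8 to 10 weeks old when the experiment began. The high calcium group, 8 rats, ate a purified Western-type diet with 120 mmol calcium per kg. The low calcium group, 9 rats, ate the same kind of diet with 30 mmol per kg and more glucose. RNA from scraped colon mucosa of each rat was labelled with Cy5 and hybridised to its own 2-colour array beside a Cy3-labelled pool of all animals. The rats of both groups therefore carried the human transgenes, and no rat without them was among the samples. A level below is the log2 ratio of a rat to the pool, and a difference is the high calcium mean minus that of low calcium, in log2 units.

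Class I molecules display short peptides from inside the cell on the surface, where CD8+ T cells and natural killer cells read them. The heavy chain holds the peptide, β2-microglobulin keeps the heavy chain folded, and the Tap1/Tap2 dimer pumps peptides from the cytosol into the endoplasmic reticulum for loading. In the rat, the RT1-A region encodes the classical class I molecules, while the CE, N and S genes lie elsewhere in the RT1 complex and are mostly nonclassical. Many of these genes are induced by interferons. The heavy chain genes are close paralogues whose number and alleles differ between strains. Probe sequences were not used here, so whether a probe also binds a paralogue or a human transgene transcript was not tested. The brighter RT1-CE5 probe listed accessions of RT1-CE12 and RT1-CE13 beside its own.

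The promoters of class I genes are known for interferon, NF-kB and cyclic AMP response elements. The windows printed here run from 250 bases before to 50 after the annotated start in RefSeq's GRCr8 assembly, on the gene's strand, and come from the Brown Norway reference and not from these rats. All 10 genes had a window. Searched on both strands were the interferon-stimulated response element core (GAAA, any 2 bases, GAAA), the gamma-activated sequence TTCNNNGAA, the NF-kB site (GGGA, any 4 bases, CCC), the cyclic AMP response core TGACG and the CCAAT box. After the sequences had been seen, the shorter kB core GGGANTCCC and the class I form of the interferon element (AGTTTC, any 2 bases, TTCT) were added. Capitals mark a match to any of the 7, and neighbouring matches can overlap. RT1-A2 and RT1-CE5 are shown as classical and CE heavy chains with like promoters, and RT1-S3 as a heavy chain whose promoter differs from both.
RT1-A2 promoter, chr20:4872621-4872920, plus strand: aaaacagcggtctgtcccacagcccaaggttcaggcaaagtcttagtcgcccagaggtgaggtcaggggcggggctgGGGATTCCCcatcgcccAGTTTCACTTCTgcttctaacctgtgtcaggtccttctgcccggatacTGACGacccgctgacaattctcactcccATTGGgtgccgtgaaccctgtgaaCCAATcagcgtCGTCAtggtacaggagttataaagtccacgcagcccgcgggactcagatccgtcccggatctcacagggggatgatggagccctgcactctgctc
RT1-CE5 promoter, chr20:3484041-3484340, minus strand: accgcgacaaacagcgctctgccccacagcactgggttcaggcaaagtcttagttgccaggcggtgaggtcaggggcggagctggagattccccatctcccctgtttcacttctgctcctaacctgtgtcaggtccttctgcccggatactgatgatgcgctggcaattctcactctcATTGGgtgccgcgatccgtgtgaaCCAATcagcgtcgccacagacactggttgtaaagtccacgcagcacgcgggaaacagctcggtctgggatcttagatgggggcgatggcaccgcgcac
RT1-S3 promoter, chr20:2675278-2675577, plus strand: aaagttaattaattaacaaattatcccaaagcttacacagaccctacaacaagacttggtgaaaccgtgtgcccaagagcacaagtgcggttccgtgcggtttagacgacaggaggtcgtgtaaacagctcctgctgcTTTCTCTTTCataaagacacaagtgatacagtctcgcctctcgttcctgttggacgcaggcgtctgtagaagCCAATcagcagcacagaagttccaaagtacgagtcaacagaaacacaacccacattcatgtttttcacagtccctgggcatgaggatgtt

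RT1-A1, RT1-A2, RT1-A3 and RT1-CE16 all held the short kB core and the class I interferon element, which 0.681% and 0.227% of the 33469 promoter windows hold. In RT1-A2 they began 173 and 156 bases before the start. These 4 promoters belong to paralogues and are not independent examples. Both patterns were added after the sequences had been seen, so the shares are no test of enrichment. In RT1-CE5 the closest stretches each had 1 mismatch to those of RT1-A2, G2A in the kB core and A1T in the interferon element, counting from 1 at the first base of the RT1-A2 element. RT1-S3 had the interferon response core instead, 112 bases before the start, and its closest stretch to either RT1-A2 element had 3 mismatches. RT1-N3 had the interferon response core as well. A match is a description of letters and not a bound site.

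Tap1, Tap2 and B2m are shown as the members other than heavy chains, each of which holds the interferon response core.
Tap1 promoter, chr20:4668494-4668793, minus strand: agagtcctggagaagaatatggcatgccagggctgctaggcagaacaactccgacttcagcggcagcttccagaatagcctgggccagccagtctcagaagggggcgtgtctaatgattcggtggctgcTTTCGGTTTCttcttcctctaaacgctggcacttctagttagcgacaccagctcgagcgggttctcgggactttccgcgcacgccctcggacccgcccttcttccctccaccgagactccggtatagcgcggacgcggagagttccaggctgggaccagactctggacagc
Tap2 promoter, chr20:4652247-4652546, minus strand: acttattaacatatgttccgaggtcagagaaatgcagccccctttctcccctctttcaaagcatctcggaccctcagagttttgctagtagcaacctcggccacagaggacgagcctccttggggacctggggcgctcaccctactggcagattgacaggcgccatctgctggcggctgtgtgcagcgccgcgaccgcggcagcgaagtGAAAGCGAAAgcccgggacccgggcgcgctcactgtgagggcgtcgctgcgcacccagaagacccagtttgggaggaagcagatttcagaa
B2m promoter, chr3:129549080-129549379, plus strand: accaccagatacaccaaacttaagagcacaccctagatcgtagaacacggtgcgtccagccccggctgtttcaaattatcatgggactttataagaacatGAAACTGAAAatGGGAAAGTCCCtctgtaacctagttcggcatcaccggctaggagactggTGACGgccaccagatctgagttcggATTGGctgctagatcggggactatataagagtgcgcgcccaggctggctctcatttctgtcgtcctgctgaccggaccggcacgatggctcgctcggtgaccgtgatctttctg

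The interferon response core began 121 bases before the start in Tap1, 41 before it in Tap2 and 150 before it in B2m. In all it stood in 5 of the 10 promoters (B2m, RT1-N3, RT1-S3, Tap1 and Tap2), against 3.92% of all windows. B2m also matched the NF-kB pattern (GGGA, any 4 bases, CCC) 138 bases before the start, against 4.99% of all windows. It was the only one of the 10 to match that pattern, but 4 heavy chain promoters held the shorter kB core. Other forms of the NF-kB site were not searched for, so a window without a match may still hold one. The gamma-activated sequence had no match in any of the 10 (8.87% of all windows). The cyclic AMP response core stood in 6 of 10 (21.2% of all windows) and the CCAAT box in 8 of 10 (37.5%); the transporter genes had neither. The Tap1 window runs head to head with that of the immunoproteasome subunit gene Psmb9, on the other strand, and the 2 windows share bases.

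Precision came from the number of rats. Between 60.0% and 71.9% of the probes on an array stood clear of background in Cy5 by the scanner's own flag. All 15 class I and transport probes did so on all 17 arrays, with none saturated in Cy5. Saturation in Cy3 was not counted. No probe on the array passed limma's test after Benjamini-Hochberg adjustment at 0.05 (0 of 27083 tested, 0%), while 2381 (8.79%) had an unadjusted p under 0.05. Each array was normalised to its own centre, which hides any shift that most genes have in common. Because the samples were whole mucosal scrapings, fewer cells of a type and less RNA per cell cannot be told apart.

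No class I or transport probe passed the test between the diets. At an unadjusted p under 0.05 limma called 0 of 15, against 8.79% of all probes tested, and after adjustment it again called 0. The smallest unadjusted p was 0.152, with an adjusted p of 0.721, and an exact two-sided permutation test over all 24310 assignments of rats to diets gave no p under 0.129. The differences ran from -0.07 to 0.08, which is 0.952-fold to 1.05-fold. They were above 0 for 10 probes and below 0 for 5, with a median of 0.05, beside a median of 0.01 over all probes. The widest 95% interval limits were -0.18 and 0.27, so changes beyond 0.880-fold or 1.20-fold lay outside the interval of every probe in this fit. These limits hold for this processing only. Over the 31 alternatives described at the end, single differences ran from -0.32 to 0.47. The groups overlapped for all 15 probes, and over the whole array they did not overlap for 0.0295% of probes.

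**Figure D1:**
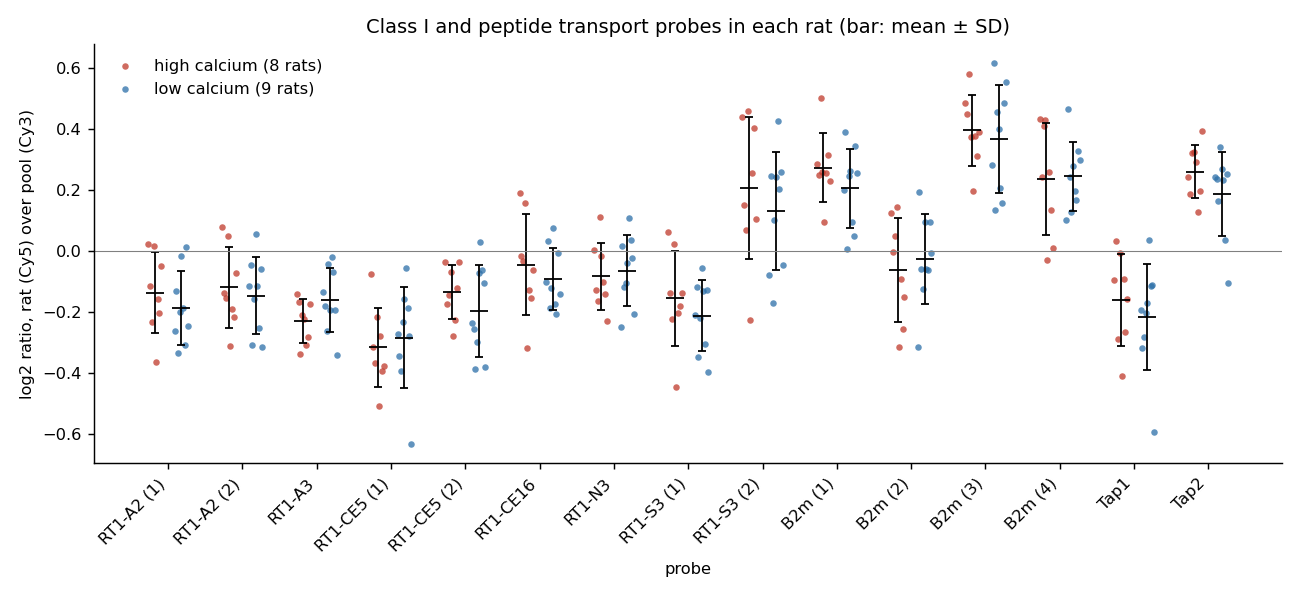
Each point is 1 rat's log2 ratio to the pool (y axis) for 1 of the 15 probes (x axis), with high calcium rats (8, red) left of low calcium rats (9, blue) and a black bar for the mean ± SD of each group. Numbers in brackets count the probes of a gene, and within every probe the 2 groups overlap.

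The classical heavy chain RT1-A2 is represented by 2 probes on chromosome 20 of the array's rn3 build. At the brighter probe (chr20:5024291-5024444) the high calcium rats ran from -0.36 to 0.02 with a median of -0.14, and the low calcium rats from -0.33 to 0.01 with a median of -0.20. Both ranges were nearly the same, with high calcium rats 13 and 2 at the ends of the first and low calcium rats 5 and 15 at the ends of the second. The difference was 0.05 ± 0.06 (SE, adjusted p = 0.863 by limma). The second probe (chr20:5024426-5024485) differed by 0.03 ± 0.06, and the 2 probes followed each other over the rats (r = 0.89 with diet means removed). RT1-A3, the other gene of the RT1-A region with a probe (chr20:4999310-4999369), had the lowest difference of all. Its high calcium rats ran from -0.34 to -0.14 (median -0.22) and its low calcium rats from -0.34 to -0.02 (median -0.18). In 7 of 8 high calcium rats it lay below the low calcium mean, yet the high calcium range fell wholly inside the low calcium one. The difference was -0.07 ± 0.05 (adjusted p = 0.721 by limma). This probe was also the dimmest of the set, with a median Cy5 signal of 425, against 101743 for the brighter RT1-A2 probe. These signals belong to different probes and set no order between the genes.

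Among the CE heavy chains, RT1-CE16 has 1 probe, which the array's design places on unplaced sequence of chromosome 20. Its high calcium rats ran from -0.32 to 0.19 (median -0.05) and its low calcium rats from -0.21 to 0.08 (median -0.12). High calcium rats 2 and 10 lay above, and rat 13 below, every low calcium rat. The difference of the means was 0.05 ± 0.06 (adjusted p = 0.878 by limma). RT1-CE5 has 2 probes whose differences had opposite signs. The brighter one (chr20:3513600-3513862), which shares its accessions with RT1-CE12 and RT1-CE13, ran from -0.51 to -0.07 in high calcium rats (median -0.34) and from -0.63 to -0.06 in low calcium rats (median -0.27), a difference of -0.03 ± 0.07. The one listing RT1-CE5 alone (chr20:3512497-3512556) ran from -0.28 to -0.04 in high calcium rats (median -0.13) and from -0.39 to 0.03 in low calcium rats (median -0.23), a difference of 0.06 ± 0.06. Both differences were about the size of their errors or smaller, and the probes correlated at r = 0.75 over the rats. With no background correction the RT1-CE5 probe of its own gave 0.10 ± 0.05 (unadjusted p = 0.0488, adjusted p = 0.516), and with the scanner's processed signals 0.13 ± 0.06 (unadjusted p = 0.0438, adjusted p = 0.461), both by limma.

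RT1-S3 and RT1-N3 are nonclassical heavy chains whose probes lie close together on chromosome 20. The brighter RT1-S3 probe (chr20:2818169-2818228) ran from -0.45 to 0.06 in high calcium rats (median -0.16) and from -0.40 to -0.05 in low calcium rats (median -0.21). High calcium rat 13 was again the lowest and rat 2 the highest of its diet. The difference was 0.06 ± 0.06 (adjusted p = 0.846 by limma). The other RT1-S3 probe (chr20:2820286-2820344) had the largest difference of the set, 0.08 ± 0.09, and also the largest spread: high calcium rats ran from -0.23 to 0.46 and low calcium rats from -0.17 to 0.43, with a median of 0.20 in each diet. RT1-N3 (chr20:2810251-2810310) ran from -0.23 to 0.11 in high calcium rats (median -0.11) and from -0.25 to 0.11 in low calcium rats (median -0.04). Its difference was -0.02 ± 0.06, with the ends of the 2 ranges almost equal.

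The light chain B2m, on chromosome 3, has 4 probes, in 2 pairs. One pair is named from the RefSeq transcript, and the other, from an expressed sequence tag, lies further downstream. The brightest probe (chr3:108836592-108838077) ran from 0.20 to 0.58 in high calcium rats (median 0.38) and from 0.14 to 0.62 in low calcium rats (median 0.40), a difference of 0.03 ± 0.07. Its partner (chr3:108836611-108838096) ran from 0.09 to 0.50 in high calcium rats (median 0.26) and from 0.01 to 0.39 in low calcium rats (median 0.25), a difference of 0.07 ± 0.06 (adjusted p = 0.789 by limma). High calcium rat 9 and low calcium rat 4 were the highest of their diets at both, and rats 13 and 5 the lowest. The downstream pair differed by -0.04 ± 0.07 (chr3:108839244-108839302) and -0.01 ± 0.07 (chr3:108839368-108839427). Within a pair the probes correlated at 0.90 over the rats, and between the pairs at 0.49 to 0.62. The B2m transcript probe with 10 spots per array also gave the noise between spots. The SD among its spots on 1 array had a median of 0.05 (0.03 to 0.07), while the SD over rats was 0.11 in the high calcium group and 0.13 in the low calcium group. The spot SD leaves out RNA preparation, labelling and differences between arrays, so the SD over rats holds these as well as differences between animals. That same probe was the only one to change its side of an unadjusted p of 0.05 when the mean of 4 pan-leukocyte markers of each rat entered limma's fit, at 0.12 ± 0.05 (unadjusted p = 0.0267, adjusted p = 0.621). The pan-leukocyte mean itself was -0.04 ± 0.12 in high calcium rats and 0.03 ± 0.11 in low calcium rats (SD, exact permutation p = 0.219).

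Tap1 and Tap2 encode the subunits of the peptide transporter and lie near each other in the RT1 complex. The Tap1 probe (chr20:4793054-4794189) ran from -0.41 to 0.03 in high calcium rats (median -0.13) and from -0.59 to 0.04 in low calcium rats (median -0.19). High calcium rat 13 and low calcium rat 16 stood at the bottom of their diets, and the difference was 0.06 ± 0.07 (adjusted p = 0.878 by limma). The Tap2 probe (chr20:4770974-4771033) ran from 0.13 to 0.39 in high calcium rats (median 0.27) and from -0.10 to 0.34 in low calcium rats (median 0.24). Its lowest rat was again low calcium rat 16, and the lowest high calcium rat was rat 14. The difference was 0.07 ± 0.06 (adjusted p = 0.759 by limma).

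**Figure D2:**
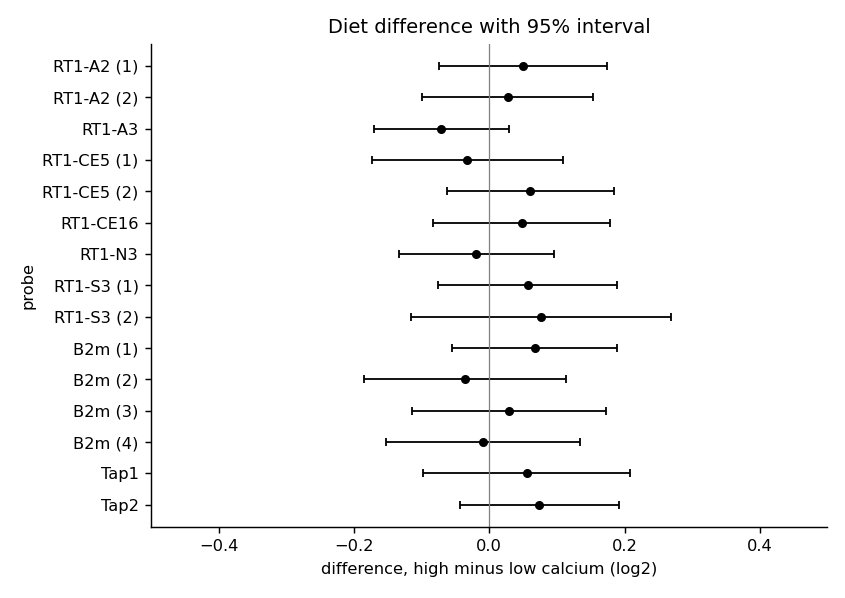
Points are the differences between the diet means, high minus low calcium, in log2 units (x axis) for the 15 probes (y axis), with the 95% interval from limma's fit. Every interval crosses 0, and the points lie between -0.07 and 0.08.

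The arrays sat on 5 slides, read from their barcodes. Slides 1 to 4 each held 2 high calcium and 2 low calcium rats, and slide 5 held low calcium rat 1 alone, so it gives no difference. For Tap1 the within-slide differences were 0.42 on slide 1, 0.09 on slide 2, -0.19 on slide 3 and -0.10 on slide 4. For RT1-S3 they were 0.22, 0.18, -0.23 and 0.06 in the same order, and for RT1-A2 0.14, 0.16, -0.16 and 0.02. No gene had the same sign on all 4 slides: the brightest probes were higher in high calcium rats on 3 of 4 slides for RT1-A2, RT1-S3 and Tap2, on 2 for RT1-CE5, RT1-CE16, RT1-N3, B2m and Tap1, and on 1 for RT1-A3. Slide 1 held low calcium rat 16, and slide 3 held high calcium rat 13.

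Several of the class I genes varied together between rats fed the same diet. Over the 36 pairs of the 9 genes, each at its brightest probe and with diet means removed, 32 correlations were positive and the median r was 0.41. The median correlation of one of these probes with the other 27082 probes tested lay between -0.04 and 0.07. After adjustment over the 36 pairs, 9 passed 0.05 by Pearson's r and 5 by Spearman's rho (permutation within diets, 100000 resamples), and none of those was negative. Several of these probes are for close paralogues, and whether they bind one another's transcripts was not tested.

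**Figure D3:**
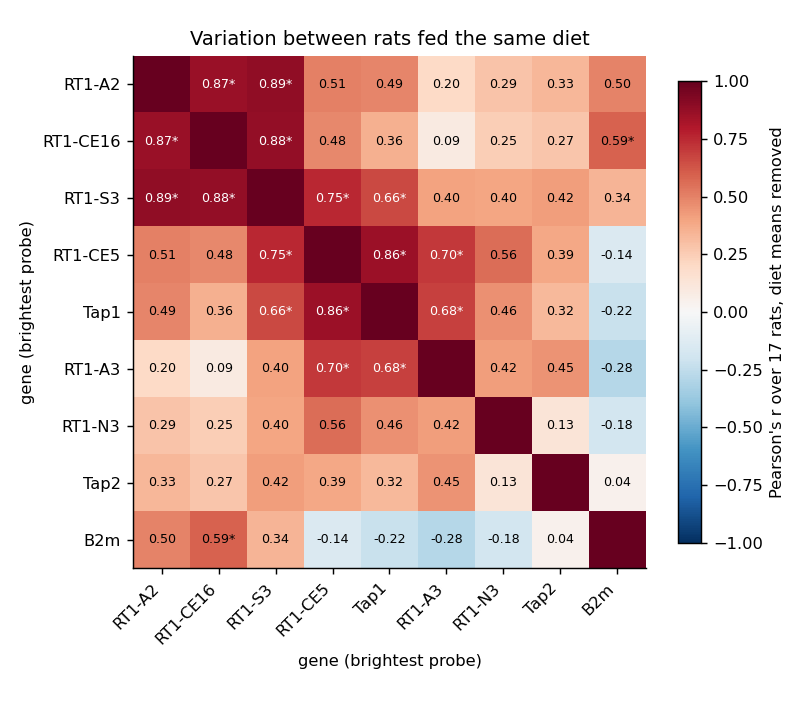
Cells give Pearson's r between the brightest probes of 2 genes over 17 rats after the mean of each diet was removed (red positive, blue negative), and an asterisk marks an adjusted permutation p under 0.05. RT1-A2, RT1-CE16 and RT1-S3 correlate most closely, followed by Tap1 with RT1-CE5. Tap1 and RT1-CE5 each also pass with RT1-S3 and RT1-A3, and B2m passes with RT1-CE16 alone.

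The closest trio was RT1-A2, RT1-CE16 and RT1-S3. RT1-A2 and RT1-S3 correlated at r = 0.89 and rho = 0.89 (permutation p = 2e-05, adjusted p = 0.00054). The value was 0.88 without the 2 rats farthest from the median and 0.91 with slide means removed as well. RT1-CE16 followed RT1-S3 at r = 0.88 and rho = 0.84 (permutation p = 7e-05, adjusted p = 0.00063), with 0.78 without the 2 farthest rats and 0.92 with slide means removed. RT1-A2 and RT1-CE16 gave r = 0.87 and rho = 0.80 (permutation p = 3e-05, adjusted p = 0.00054), with 0.85 and 0.94 in the same checks. In all 3 genes high calcium rats 2 and 10 and low calcium rat 7 stood above their diet mean, and high calcium rat 13 and low calcium rat 5 stood below it. Each pair was positive within either diet alone, between 0.75 and 0.96. Of these 3 genes, RT1-A2 and RT1-CE16 have the kB core and class I interferon element in the promoter windows above, and RT1-S3 does not.

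Tap1 paired with the RT1-CE5 probe that lists several CE genes. Its r was 0.86 and rho 0.76 (permutation p = 5e-05, adjusted p = 0.0006), with 0.84 without the 2 farthest rats and 0.86 with slide means removed. Low calcium rat 16 was lowest and rat 8 highest of its diet for both genes, and high calcium rat 13 was lowest of its own. RT1-CE5 also followed RT1-S3 (r = 0.75, rho = 0.66, permutation p = 0.0004, adjusted p = 0.00288), at 0.65 without the 2 farthest rats and 0.82 with slide means removed. Tap1 followed RT1-S3 more loosely (r = 0.66, rho = 0.58, permutation p = 0.00423, adjusted p = 0.0195), at 0.60 and 0.72 in those checks. Low calcium rat 16 was also the lowest of its diet for RT1-A3. The RT1-A3 r with RT1-CE5 was 0.70 (rho = 0.62, permutation p = 0.00275, adjusted p = 0.0165) and 0.45 without the 2 farthest rats. With Tap1 its r was 0.68 (rho = 0.58, permutation p = 0.00433, adjusted p = 0.0195) and 0.41 without them, so both relations rest in part on those rats. In the Cy5 channel alone these RT1-A3 correlations were 0.26 and 0.45. In that channel RT1-CE5 followed RT1-S3 at 0.86, RT1-CE16 at 0.84 and RT1-A2 at 0.83, but Tap1 at 0.63. In the log2 ratio RT1-CE5 gave 0.48 with RT1-CE16 and 0.51 with RT1-A2, so its closest partner depended on the processing.

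The correlation between the transporter subunits did not pass. Tap1 and Tap2 had r = 0.32 and rho = 0.06 (permutation p = 0.23, adjusted p = 0.331), and without low calcium rat 16, the lowest for both, r was -0.13. B2m and Tap1 did not pass either, at r = -0.22 (rho = -0.21, permutation p = 0.439, adjusted p = 0.514), and the sign was not stable. It was 0.39 within high calcium rats and -0.52 within low calcium rats, and over all rats 0.22 in Cy5 alone, 0.32 with no background correction, 0.47 in the series matrix and 0.96 with median centring. At its brightest probe B2m passed with RT1-CE16 alone (r = 0.59, rho = 0.61, permutation p = 0.00765, adjusted p = 0.0306). That r was 0.51 without the 2 farthest rats and 0.46 with slide means removed. The downstream B2m probes followed the brightest one only at 0.60 and 0.62. Their correlations with the other genes were not tested, so the B2m results here hold for its brightest probe. RT1-N3 passed with no other gene; its highest r was 0.56, with RT1-CE5 (rho = 0.56, permutation p = 0.0235, adjusted p = 0.0847).

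**Figure D4:**
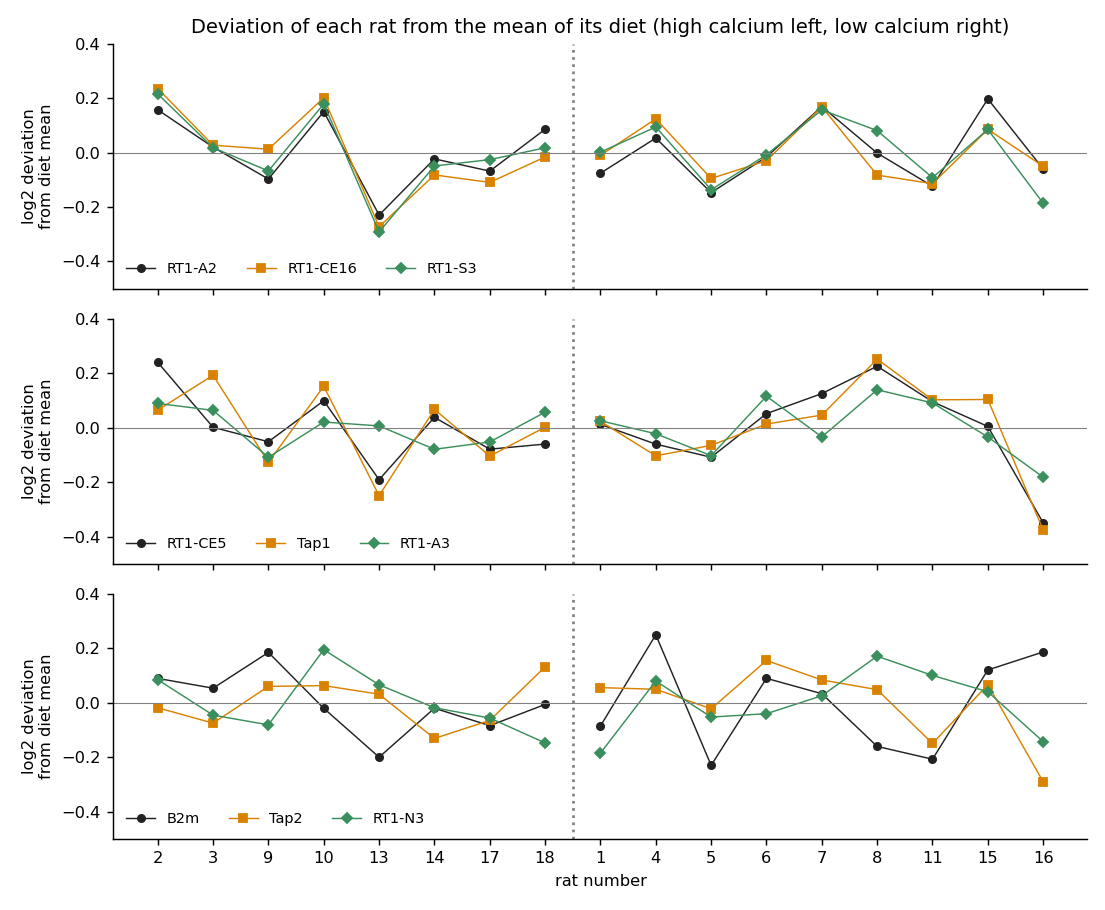
Lines give each rat's log2 deviation from the mean of its own diet (y axis) by rat number (x axis), high calcium rats left and low calcium rats right of the dotted line, for the 9 genes in 3 panels. Rat 13 is low in the upper and middle panels except for RT1-A3 and rat 16 is lowest for Tap1, RT1-CE5, RT1-A3 and Tap2.

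Single rats held the extremes of several genes at once. High calcium rat 13 was the lowest of its diet in 6 of the 9 genes, and rat 2 was the highest in 5. In the low calcium group rat 16 was the lowest in 5 and rat 8 the highest in 4. By Dixon's criterion none of the 30 probe and diet combinations had a rat far from the others.

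The other genes of the pathway were read at 1 probe per gene, the brightest. Of 54 listed genes 47 could be tested, and 3 had an unadjusted p under 0.05 in limma's fit, 1 higher (against 3.95% of all probes) and 2 lower (against 4.84%). None passed after adjustment over all probes. Among peptide loading and trimming genes, which include tapasin (Tapbp) and the chaperones calreticulin and calnexin, 0 of 6 passed either threshold, with 3 above and 3 below 0 and a median of -0.01. The immunoproteasome subunits (Psmb8, Psmb9, Psmb10), which cut peptides for class I, and the activator subunits Psme1 and Psme2 had 0 of 5. The largest difference among them was -0.052, for Psmb8. Psmb9, whose promoter window overlaps that of Tap1, differed by 0.03 ± 0.05. Between rats of the same diet, Tap1 and Psmb9 had r = -0.21 (rho = -0.38, permutation p = 0.44, adjusted p = 0.724) over 17 rats, and -0.57 without the 2 farthest rats. The class II genes, which present peptides to CD4+ T cells, had 0 of 7, with 6 below 0 and a median of -0.05.

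Irf2, a transcription factor that binds interferon response elements, was the 1 of 20 measured class I regulators with an unadjusted p under 0.05. It ran from 0.05 to 0.42 in high calcium rats (median 0.24) and from -0.12 to 0.30 in low calcium rats (median 0.00). The ranges overlapped, with a difference of 0.18 ± 0.06 (unadjusted p = 0.00753, adjusted p = 0.354 by limma). In Cy5 alone it was 0.13 ± 0.08 (unadjusted p = 0.107). The related Irf1 differed by 0.02 ± 0.09 and Ifng, the gene of interferon gamma, by -0.15 ± 0.12, neither past the unadjusted threshold.

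Procr, the endothelial protein C receptor with a class I-like fold, had the largest difference of the pathway lists, at the brighter of its 2 tested probes. It ran from -1.03 to 0.41 in high calcium rats (median -0.46) and from -0.39 to 0.55 in low calcium rats (median 0.22). The highest high calcium rat lay within the low calcium range, so the groups overlapped. The difference was -0.50 ± 0.16 (unadjusted p = 0.00384, adjusted p = 0.301 by limma). Without high calcium rat 3, the highest of its diet, it was -0.61 ± 0.14 with an adjusted p of 0.0482 by limma. Without that rat 193 probes of the array passed after adjustment. With scale normalization the Procr difference was -0.79 ± 0.41 (unadjusted p = 0.0717 by limma), and with median centring -0.45 ± 0.33 (unadjusted p = 0.188 by limma). The endothelial list, of which 2 markers were measured, averaged -0.07 ± 0.12 in high calcium rats and 0.05 ± 0.08 in low calcium rats (SD, exact permutation p = 0.0239, adjusted p = 0.0599 over 10 lists), and its part in the Procr value was not tested. Its markers went opposite ways: Vwf differed by -0.28 ± 0.08 (unadjusted p = 0.00194, adjusted p = 0.236 by limma) and Cdh5 by 0.03 ± 0.04 (unadjusted p = 0.519), so the list mean rests on Vwf. The other 4 class I-like genes measured did not pass. Of the 4 receptor and coreceptor genes measured, Cd8b, a chain of the CD8 coreceptor that binds class I, differed by -0.14 ± 0.06 (unadjusted p = 0.0383, adjusted p = 0.535 by limma) over 16 rats, rat 14 having no value. Its partner chain Cd8a differed by 0.06 ± 0.05. The unadjusted call for Cd8b was lost under 7 of 14 processing alternatives, among them slide as a block (-0.11 ± 0.07, unadjusted p = 0.113), and without any 1 of high calcium rats 3, 13 and 18 and low calcium rats 1, 4, 5 and 8, at -0.13 to -0.11.

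**Figure D5:**
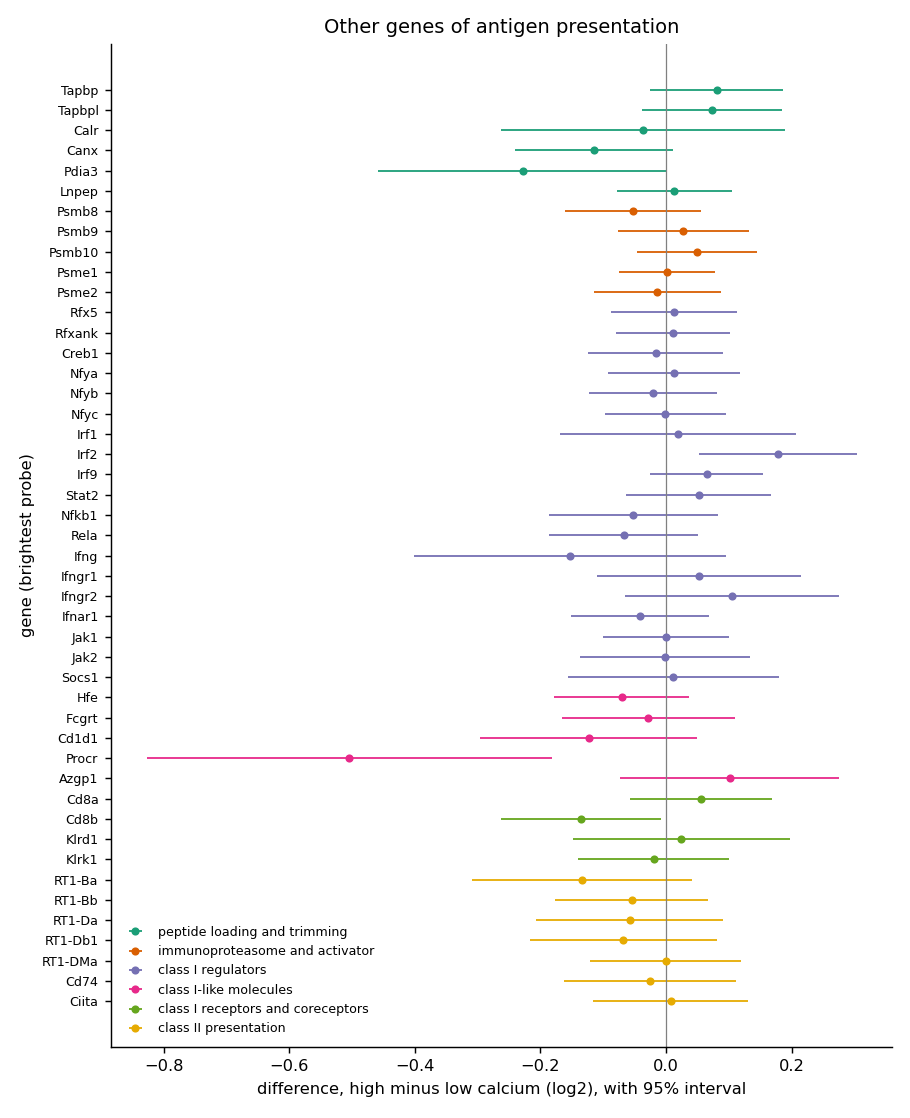
Points are the differences between the diet means, high minus low calcium, in log2 units (x axis) for 46 other genes of antigen presentation (y axis), coloured by list, with the 95% interval from limma's fit. Intervals exclude 0 for Irf2 (0.18), Procr (-0.50) and Cd8b (-0.14).

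Of 10 lists of cell type markers, 3 differed between the diets after adjustment over the lists. The lists were chosen with earlier results of these data known, which this adjustment does not cover. No single marker passed limma's test after adjustment over all probes. The fibroblast list (4 of 4 markers measured) averaged -0.39 ± 0.34 in high calcium rats, from -0.96 to 0.20, and 0.23 ± 0.28 in low calcium rats, from -0.19 to 0.57 (SD, exact permutation p = 0.00132, adjusted p = 0.0132). The macrophage list (4 of 5) averaged -0.14 ± 0.15 in high calcium rats and 0.06 ± 0.14 in low calcium rats (exact permutation p = 0.0109, adjusted p = 0.0363), and the goblet cell list (2 of 3) 0.14 ± 0.20 in high calcium rats and -0.12 ± 0.08 in low calcium rats (exact permutation p = 0.00271, adjusted p = 0.0136). The epithelium list, all 9 of whose markers were tested, averaged 0.06 ± 0.07 in high calcium rats and 0.01 ± 0.13 in low calcium rats (exact permutation p = 0.27). The neutrophil list (3 of 4) averaged -0.28 ± 0.40 in high calcium rats and 0.09 ± 0.37 in low calcium rats (exact permutation p = 0.0642). The lists of T and NK cells (6 of 6), B cells (2 of 4) and smooth muscle (3 of 4) gave exact permutation p of 0.641, 0.684 and 0.206. Of the T and NK markers 2 were above and 4 below 0. Cd2 (-0.25 ± 0.08) and Nkg7 (0.17 ± 0.08) went opposite ways, each at an unadjusted p under 0.05 by limma, and none of the 6 passed after adjustment. With the epithelium mean in the fit the median difference of the 15 probes was 0.00, against 0.05 without it, and with the pan-leukocyte mean it was 0.05. These medians pool several probes of some genes and carry no test, so the part of epithelium in the class I values was not tested. The other lists were not entered in a fit.

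Genes outside the set were searched for the pattern most like 3 of its probes, by Pearson's r over 17 rats with diet means removed. Only probes with a gene name were kept, so probes under accessions or provisional identifiers could lie nearer. For RT1-CE16, the brightest RT1 probe of the set, the 5 nearest were other class I heavy chain probes: RT1-CE4 (0.91), RT1-CE3 (0.91), RT1-CE12 (0.90), RT1-CE2 (0.88) and RT1-Aw2 (0.86). For Tap1 they included Rtn4 (0.90), Npc2 (0.87), Irgm (0.85) and Wdr1 (0.84). Irgm is an interferon-induced GTPase. For B2m they were Arpc3 (0.77), Plac8 (0.76), Pdcd6 (0.75), Olr733 (0.72) and Tmsb4x (0.71). These are the highest among the named genes of the 27082 other probes tested and are given as a description.

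The remaining RT1 class I probes on the array, 23 under 17 names, were set beside the named genes. Of the 19 tested, 9 were above and 10 below 0, with a median of 0.00, and 1 had an unadjusted p under 0.05, against 8.79% of all probes, so the count was not above the background. The 1 probe was that of RT1-T24-1, with a difference of -0.15 ± 0.06 (unadjusted p = 0.0169, adjusted p = 0.443 by limma). Its unadjusted call was lost under 3 of 14 processing alternatives, among them Cy5 alone (-0.09 ± 0.06, unadjusted p = 0.134 by limma). It was kept without any 1 rat.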

How the data were processed

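Each of the 17 rats had 1 array, on which its RNA carried Cy5 and the common pool of all animals carried Cy3; dyes were never swapped. Per the file headers, the deposited scanner files hold spot intensity values of both dyes, written by Agilent Feature Extraction 9.5.1.1 (version 9.5 per the submitters' processing notes). The log2 values of the deposited series matrix cover 28213 of 45018 features. Its array medians were 8.71 to 8.73, its changes followed the log2 ratio (r = 0.982 across probes and arrays, which are not independent), and its offset stays unknown, so it served as an alternative only.

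In limma 3.58.1 under R 4.3.3, intensities went through normexp (offset 50) and loess within arrays, with control and outlier spots at weight 0 and then left out. Averaging took 43379 spots to 41012 probes. Tests covered the 27083 probes that 8 or more arrays showed well above background in Cy5. Median Cy5 signal was 146.8 to 180.8 per array over a background of 43.5 to 53.5. Sample titles gave the groups, which lmFit and eBayes in limma compared in a two-sided test with no covariate; p-values were adjusted by Benjamini-Hochberg over every probe tested. Correlations used permutation within diets. The fit was tested on simulated data. The genes, lists and tests were chosen with earlier results of these data known. All probes of the set are named. Of the pathway lists, up to 5 genes with an unadjusted p under 0.05 are named, beside a few partners named after their values were seen. Added to these are the 5 genes most like Tap1, B2m and RT1-CE16, among probes with a gene name. For 1 further gene no value is reported here. Motifs came from RefSeq promoter windows of GRCr8. Alternatives covered background correction, normalization, channel, filter, slide, array weights, variance model, marker covariates and leaving out each rat.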

Additional observations from a re-analysis of the deposited data

How the results depend on the processing

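No paired analysis was possible because the diets share no replicate numbers. Over 31 alternatives the 15 probes gave 465 differences, of which 0 had an adjusted p under 0.05, 3 had an unadjusted p under 0.05 and 33 had the opposite sign. The number of these probes at an unadjusted p under 0.05 was 1 with no background correction, 1 with the scanner's processed signals, 1 with the pan-leukocyte covariate and 0 without any 1 rat. Opposite signs were as follows. RT1-A3 gave 0.0088 with no background correction, 0.023 with processed signals, 0.019 with median centring, 0.087 with scale normalization and 0.017 in Cy5 alone. RT1-N3 gave 0.0040 with processed signals, 0.062 with median centring, and -0.047 to 0.0024 without 1 rat. The brighter RT1-CE5 probe gave 0.015 with median centring, 0.30 with scale normalization and 0.00047 in the series matrix, and RT1-CE5 as the mean of its probes gave 0.014. The brightest B2m probe gave -0.32 with scale normalization, -0.011 in Cy5 alone and -0.0081 with the epithelium covariate, and its partner -0.092 with scale normalization. Of the downstream B2m probes, the first gave 0.011 with median centring, 0.069 with scale normalization and -0.071 to 0.00048 without 1 rat. The second gave 0.041 with median centring, 0.015 in Cy5 alone, 0.021 in the series matrix, 0.028 with array weights, 0.030 with the pan-leukocyte covariate and -0.037 to 0.029 without 1 rat. With scale normalization the second RT1-S3 probe gave -0.30 and Tap2 -0.063. The second RT1-A2 probe gave -0.0078 with the epithelium covariate and -0.0011 to 0.055 without 1 rat. With the sign kept, the second downstream B2m probe reached -0.30 and the brighter RT1-S3 probe 0.47. The RT1-A2 probes reached 0.46 and 0.37, and RT1-CE16 reached 0.34. The cause was not tested in any of these. Over all probes, the count at an unadjusted p under 0.05 was 779 with median centring, 1358 with scale normalization, 3716 with array weights and 1588 to 3081 without 1 rat. The adjusted count was 0 to 193 without 1 rat, with 193 without high calcium rat 3 and 38 without low calcium rat 16. Pathway genes at an unadjusted p under 0.05 numbered 5 with no background correction, 6 with processed signals, 0 with median centring, 5 in the series matrix and 2 to 5 without 1 rat; after adjustment there were 0 to 1, the 1 being Procr without rat 3. The median correlation between genes was 0.97 with median centring and 0.38 in Cy5 alone.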

Other observations

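Relations of the class I genes with other genes were computed after the results above were known, over 17 rats with diet means removed. Of 423 correlations with the pathway genes 59 had an unadjusted permutation p under 0.05 by Pearson's r. The same share over all tested probes was not computed, so this count has no background beside it. After adjustment 0 passed by Pearson's r and 1 by Spearman's rho. That 1 was RT1-CE5 with Irf1, an interferon-induced transcription factor, at rho = 0.83 (permutation p = 0.00011, adjusted p = 0.0465). Its Pearson's r was 0.75 (permutation p = 0.00081, adjusted p = 0.128), with 0.58 without the 2 rats farthest from the median and 0.75 with slide means removed. RT1-A3 with the kinase Jak1 had the smallest p by Pearson's r, at r = 0.81 (rho = 0.76, permutation p = 0.00041, adjusted p = 0.128).

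Of 90 correlations with the means of the cell type lists 1 passed after adjustment. Tap2 followed the goblet cell list, Muc2 and Tff3, at r = 0.64 and rho = 0.80 (permutation p = 0.0005, adjusted p = 0.045). The value was 0.84 without the 2 farthest rats and 0.66 with slide means removed. RT1-A2 with the epithelium list (r = 0.70, rho = 0.68, permutation p = 0.00179, adjusted p = 0.0585) and RT1-CE5 with the macrophage list (r = 0.72, rho = 0.58, permutation p = 0.00195, adjusted p = 0.0585) came next and did not pass.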
